A study of Mus musculus with 4 samples.

Results

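Hox genes encode homeodomain transcription factors and lie in 4 clusters in the mouse genome, *Hoxa*, *Hoxb*, *Hoxc* and *Hoxd*. Within a cluster the genes are transcribed in one direction and stand in the order in which they are used along the body axis, so that low numbers mark genes used from the hindbrain backwards and high numbers genes of the tail, limbs and urogenital tract. Genes with the same number in different clusters descend from one ancestral gene and form a paralogue group. In trunk organs Hox transcripts are known mainly from mesenchyme, muscle and nerve, and Polycomb and Trithorax complexes keep the clusters off or on.

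All 39 genes whose symbol is *Hoxa*, *Hoxb*, *Hoxc* or *Hoxd* followed by a number were taken from a table of 24391 genes. They comprised 11 *Hoxa*, 10 *Hoxb*, 9 *Hoxc* and 9 *Hoxd* genes, which is the full set of these names in the annotation of mm9 (NCBI build 37). On that build *Hoxa* lay on the minus strand of chromosome 6, and the other clusters spanned chr11:96055630-96229570 on the plus strand (*Hoxb*), chr15:102751534-102867274 on the plus strand (*Hoxc*) and chr2:74506367-74603200 on the plus strand (*Hoxd*). No measured value entered this choice.

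The data were RNA-seq counts per gene of whole pancreas at E18.5. There were 2 control libraries, labelled Pdx1Cre RESTwt, and 2 *Rest* pKO libraries, labelled Pdx1Cre RESTLoxP/LoxP, all of a strain background mixed with C57BL/6. Every embryo, controls included, carried the *Pdx1*-Cre transgene, and in *Rest* pKO it excised exon 4 of both copies of *Rest*, the gene of a transcriptional repressor of neuronal genes. *Pdx1*-Cre acts in the pancreatic epithelium, so that mesenchyme, vessels and nerves of a *Rest* pKO organ kept *Rest*.

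Counts summed to between 16936759 and 24134100 per library, of which 832 to 1182 fell on Hox genes. *Rest* itself was at 14.2 and 15.7 CPM in controls, against 12.1 and 9.15 CPM in *Rest* pKO, where CPM is a gene's counts relative to the TMM-scaled library total. This difference did not pass the test (edgeR log2 fold change −0.49 with a standard error of 0.23 and an adjusted p of 0.593). Reads from every exon and from unrecombined cells enter this value. Counts of *Xist* and of Y-linked genes showed that each genotype held 1 female (control 1, *Rest* pKO 2) and 1 male (control 2, *Rest* pKO 1), so the replicates of a genotype came from different embryos. The genotypes' acinar, islet and duct markers were present in every library, as the tissue label states, and *Rest* pKO 2 held more skeletal muscle RNA than the others, with a summed level over 6 marker genes of 111 CPM against 13.3 to 18.55 CPM.

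Hox transcripts were few. Their summed level was 49.5 and 52.7 CPM in controls and 54.8 and 46.8 CPM in *Rest* pKO, and the groups overlapped. The highest mean of a single member was 6.93 CPM, at the 29.5th percentile of all 14550 genes tested. Of the 39 Hox genes, 29 had a count in at least 1 library, 20 had at least 3 counts in every library, and 20 passed the filter on low counts and were tested. Since the filter is met by libraries of either genotype, these 20 are the better counted members and not the whole family.

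No count fell in any library on 10 genes, *Hoxa11*, *Hoxa13*, *Hoxb13*, *Hoxc11*, *Hoxc12*, *Hoxc13*, *Hoxd10*, *Hoxd11*, *Hoxd12* and *Hoxd13*. All are posterior genes of the tail, limb and urogenital regions. A count of 0 allows a level of up to 0.137 to 0.178 CPM per library, the value of 3 counts. A further 9 genes had counts too low for the test, *Hoxa6*, *Hoxa9*, *Hoxa10*, *Hoxb1*, *Hoxc8*, *Hoxc9*, *Hoxc10*, *Hoxd1* and *Hoxd3*. The best counted of these were *Hoxa6*, with 2 and 8 counts in controls and 4 and 7 in *Rest* pKO, and *Hoxd3*, with 6 and 9 counts in controls and 5 and 8 in *Rest* pKO. *Hoxb1*, a hindbrain gene, had 1 count in control 1 and none elsewhere. *Hoxa10* and *Hoxc10* had 3 counts each in *Rest* pKO 1 and 0 in the other 3 libraries.

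Upstream sequence was read in the 250 bases before a start site, from RefSeq promoter windows on GRCm38.p6. The windows of 3 genes are shown in full, *Hoxa5* (chr6:52204588-52204837, minus strand), the most abundant member per length, *Hoxd8* (chr2:74704365-74704614, plus strand), a well counted *Hoxd* gene, and *Hoxd12* (chr2:74674763-74675012, plus strand), which had no count. Capitals mark matches on either strand to CCAAT, a box found in many promoters, and to TTCAGCACC, the left part of the RE1 element bound by REST.
Hoxa5: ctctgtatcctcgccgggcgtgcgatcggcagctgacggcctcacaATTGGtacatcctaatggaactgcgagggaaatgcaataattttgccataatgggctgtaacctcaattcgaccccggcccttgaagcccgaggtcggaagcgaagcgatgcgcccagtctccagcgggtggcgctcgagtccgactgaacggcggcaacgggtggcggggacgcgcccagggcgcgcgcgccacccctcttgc
Hoxd8: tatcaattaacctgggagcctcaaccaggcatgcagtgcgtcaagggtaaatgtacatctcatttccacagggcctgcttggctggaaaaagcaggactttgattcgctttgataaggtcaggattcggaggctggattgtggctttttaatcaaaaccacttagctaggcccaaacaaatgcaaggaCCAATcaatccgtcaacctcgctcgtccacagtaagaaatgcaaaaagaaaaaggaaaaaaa
Hoxd12: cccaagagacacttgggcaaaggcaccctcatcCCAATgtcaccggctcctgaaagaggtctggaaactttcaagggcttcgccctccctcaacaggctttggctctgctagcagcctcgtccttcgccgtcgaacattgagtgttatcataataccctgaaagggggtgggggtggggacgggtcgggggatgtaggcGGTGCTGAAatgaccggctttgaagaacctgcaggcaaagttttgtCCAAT
The *Hoxa5* window held 28 CG dinucleotides, the *Hoxd12* window 10 and the *Hoxd8* window 6. *Hoxd12* does not stand for the other genes without a count. Their windows held 35 for *Hoxa13*, 31 for *Hoxd13*, 20 for *Hoxd10*, 13 for *Hoxa11*, and 2 and 20 for *Hoxd11*. In all, 22 Hox genes had an entry, with 24 windows. CCAAT matched 14 of these 24 windows, against 33.8% of 32851 windows of all genes. TTCAGCACC matched 1 of the 24, that of *Hoxd12*, against 0.301% of all windows. The windows of *Hoxa11*, *Hoxa13*, *Hoxd10*, *Hoxd11* and *Hoxd13*, also genes without a count, held no such match. GGACAG, the right part of the RE1, matched 3 of the 24, those of *Hoxa10*, *Hoxd1* and *Hoxd11*, against 18.7%. A match describes letters in these windows and not a bound site.

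Levels between genes were compared as CPM divided by the kilobases of annotated exon (CPM per kilobase). On this scale the genes of paralogue groups 4 to 8 held 67.8% and 68.9% of the summed Hox level in controls and 69.7% and 73.5% in *Rest* pKO. Groups 1 to 3 held 20.3% to 29.7%, groups 9 to 13 held 2.45% to 6.29%, and groups 11 to 13 held nothing. The mean share over the 4 libraries was highest for group 5, at 26.2% ± 2.91 (SD, n = 4), followed by group 4 at 18.9% ± 0.87, group 3 at 12.6% ± 3.34, group 8 at 12% ± 2.62 and group 2 at 11.2% ± 0.51. The last 3 of these overlap within their spread over libraries.

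**Figure D1:**
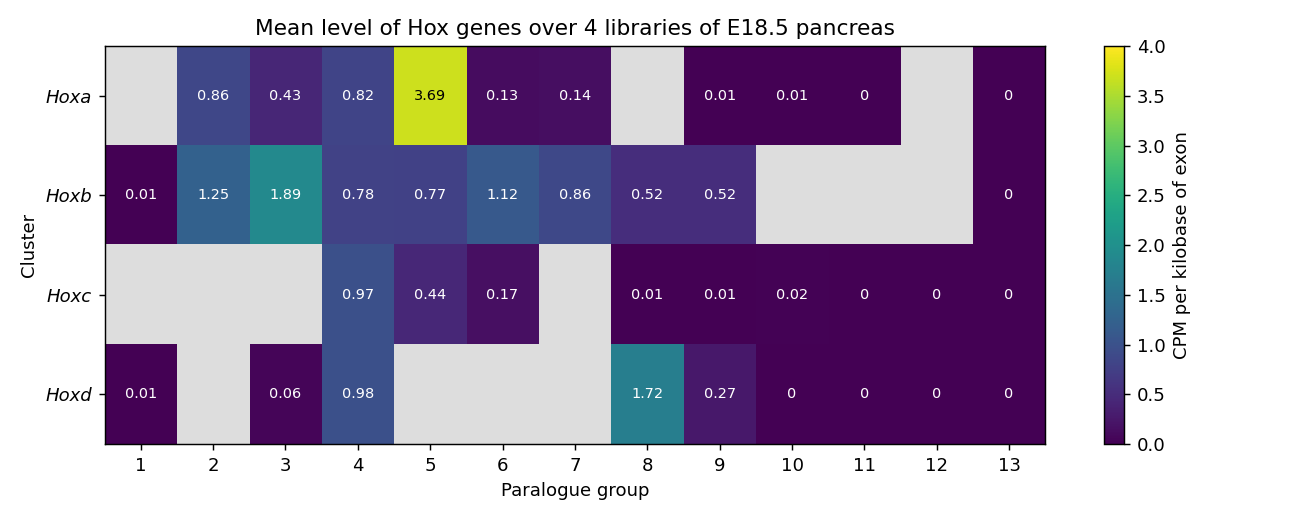
Mean level of Hox genes over the 4 libraries, in CPM per kilobase of exon, with clusters in rows and paralogue groups in columns. Grey squares are genes that do not exist in the mouse or are not reported here. *Hoxa5* is brightest at 3.69, groups 2 to 8 hold nearly all of the level, and the right end of every row is dark.

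By cluster, *Hoxb* held the largest mean share, 41.2% ± 1.24 (SD, n = 4), and *Hoxa* 34% ± 4.81. *Hoxd* held 16.1% ± 3.84 and *Hoxc* 8.66% ± 0.85. The *Hoxb* share was 41.0% and 40.9% in controls and 39.9% and 42.9% in *Rest* pKO, so it was nearly level across the libraries. The *Hoxa* share was 39.7% and 34.3% in controls and 34.1% and 27.9% in *Rest* pKO, and the *Hoxd* share was 10.8% and 16.1% in controls and 18.3% and 19.5% in *Rest* pKO. The *Hoxd* share was therefore above both controls in both *Rest* pKO libraries and the *Hoxa* share below, with control 2 and *Rest* pKO 1 almost equal for *Hoxa*.

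Only 5 genes reached a mean of 1 CPM per kilobase, and together they held 51.5% of the summed level. *Hoxa5*, which patterns the neck and upper thorax and is needed for lung development, had a mean of 3.69 ± 0.60 (SD, n = 4), with 4.5 and 3.625 in controls and 3.58 and 3.06 in *Rest* pKO. With this exon length its lowest library lay above the highest library of every other Hox gene. *Hoxb3*, a gene of the hindbrain and pharyngeal region, followed at 1.89 ± 0.57, *Hoxd8* at 1.72 ± 0.52, *Hoxb2* at 1.25 ± 0.08 and *Hoxb6* at 1.12 ± 0.09. *Hoxb3* and *Hoxd8* did not differ beyond their spread over libraries, and neither did *Hoxb2* and *Hoxb6*. The next genes were *Hoxd4* at 0.98, *Hoxc4* at 0.97, *Hoxb7* and *Hoxa2* at 0.86 each, *Hoxa4* at 0.82, *Hoxb4* at 0.78 and *Hoxb5* at 0.77, again closer to each other than their libraries were. With the longest transcript as length, *Hoxb3* came to a mean of 2.92 and *Hoxd8* to 1.79, while *Hoxa5* stayed at 3.69. The gaps between these genes thus depend on the length used.

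The 4 clusters had different shapes. *Hoxb* had counts in every library for 8 genes in a row, from *Hoxb2* to *Hoxb9*, with means over the 4 libraries between 0.52 and 1.89, and next to none at *Hoxb1* on one side and none at *Hoxb13* on the other. The mean of *Hoxb9* was 0.25 in controls and 0.79 in *Rest* pKO. *Hoxa* was dominated by *Hoxa5*, between *Hoxa4* at 0.82 and *Hoxa6* at 0.13. *Hoxc* fell from *Hoxc4* at 0.97 through *Hoxc5* at 0.44 and *Hoxc6* at 0.17 to nearly nothing. *Hoxd* had 2 high genes, *Hoxd8* and *Hoxd4*, with no *Hoxd* gene numbered between them, and with *Hoxd9* at 0.27 and *Hoxd3* at 0.06.

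Exons of 6 Hox genes overlap those of a neighbouring Hox gene on the same strand. The overlap covers 67.4% of the exon bases of *Hoxd4*, all shared with *Hoxd3*, and 40.4% of those of *Hoxb8*, shared with *Hoxb7*. The levels of these genes are therefore uncertain. With shared bases left out of the length, *Hoxd4* came to 2.99 CPM per kilobase, which placed it second after *Hoxa5* and above *Hoxb3* and *Hoxd8*, and 7 genes reached a mean of 1. Exons of *Hoxb2* and *Hoxb3* overlap the antisense gene *Hoxb3os*, and the strand setting of the counting is not stated in the sources used here.

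The comparison of the genotypes asked whether loss of REST in the pancreatic epithelium was accompanied by a change in Hox transcripts. By edgeR's quasi-likelihood test 0 of the 20 tested genes passed an adjusted p of 0.05 in either direction, beside 0.0275% of all 14550 genes. DESeq2 gave an adjusted p for 17 of them and called 0, beside 0.716% of all genes, and limma-voom called 0 of the 20, beside 0.0206%. At an unadjusted p under 0.05, 1 Hox gene was higher and 1 lower, beside 3.26% and 5.61% of all genes, or 10% of the 20 beside 8.87% in either direction. With sex as a further term edgeR called 0 Hox genes, beside 1.7% of all genes, 0.412% higher and 1.29% lower. The fold changes lay above 0 for 11 genes and below 0 for 9, and 49.5% of all genes lay above 0. Their median log2 fold change was 0.08, beside −0.005 for all genes, and the median of its size was 0.29 beside 0.23. The Hox median lay below 0 when only genes reaching 1 CPM in 2 libraries were kept (−0.004) and without control 1 (−0.04) or *Rest* pKO 1 (−0.11).

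In 5 genes both *Rest* pKO libraries exceeded both controls, *Hoxb9*, *Hoxd8*, *Hoxb7*, *Hoxd9* and *Hoxb5*, which is 25.0% of the 20 beside 21.5% of all genes. In 3 genes both fell short of both controls, *Hoxb3*, *Hoxa5* and *Hoxc4*, or 15.0% beside 21.2%. The other 12 overlapped. These shares are close to the background.

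**Figure D2:**
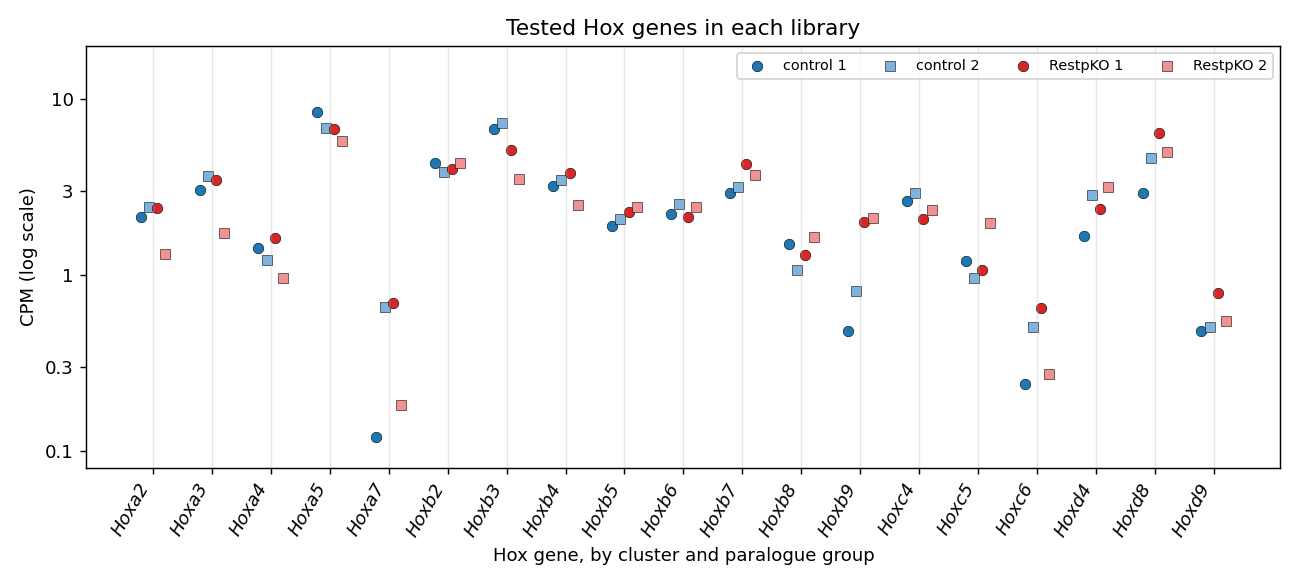
CPM of 19 of the 20 tested Hox genes in each library on a log scale, controls in blue and *Rest* pKO in red. Most genes show mixed colours, *Hoxb9* shows both *Rest* pKO points near 2 above both control points under 1, and *Hoxb3* and *Hoxa5* show them below.

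*Hoxb9*, a gene of the thoracic body wall and limb level, had the smallest p. Its counts were 8 and 16 in controls and 43 and 46 in *Rest* pKO, or 0.48 and 0.81 against 1.99 and 2.09 CPM. The groups did not overlap, and the gap between them was larger than the spread within either. The log2 fold change was 1.65 (standard error 0.45, 95% interval 0.59 to 2.71), with an unadjusted p of 0.00754 and an adjusted p of 0.424 from edgeR and 0.536 from DESeq2. It was higher in the female pair by 2.14 and in the male pair by 1.31 on the log2 scale. Without control 1 the log2 fold change was 1.33 and the unadjusted edgeR p 0.0597.

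*Hoxb3* had the second smallest p and went the other way. Its level was 6.78 and 7.26 CPM in controls and 5.14 and 3.51 CPM in *Rest* pKO, so that the groups did not overlap, but the *Rest* pKO libraries lay as far from each other as the nearer one from the controls. The log2 fold change was −0.70 (standard error 0.29, 95% interval −1.39 to −0.01) with an adjusted p of 0.556 from edgeR. Without *Rest* pKO 2 it was −0.44, and without *Rest* pKO 1 it was −0.998. The ratio of *Hoxb9* to *Hoxb3* counts, which does not depend on library scaling, was 0.0702 and 0.111 in controls and 0.387 and 0.597 in *Rest* pKO. That ratio was formed after the values of both genes had been seen.

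*Hoxd8* was at 2.92 and 4.59 CPM in controls, against 6.40 and 4.96 CPM in *Rest* pKO. The nearest libraries of the 2 genotypes lay closer to each other than the libraries within either genotype. Its log2 fold change was 0.59 (95% interval −0.18 to 1.37, adjusted p = 0.640 from edgeR). Without control 1 it was 0.30, and without control 2 it was 0.96.

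*Hoxa5* was at 8.45 and 6.80 CPM in controls, against 6.72 and 5.74 CPM in *Rest* pKO. Control 2 and *Rest* pKO 1 were nearly equal. The log2 fold change was −0.29 (95% interval −0.90 to 0.32, adjusted p = 0.733 from edgeR). *Hoxb7*, known from the kidney's ureteric bud, was at 2.92 and 3.18 CPM against 4.26 and 3.69 CPM, and *Hoxb5*, a gene of enteric neural crest and mesenchyme, at 1.90 and 2.07 CPM against 2.27 and 2.41 CPM. Both had *Rest* pKO above control with small differences, of 0.38 and 0.24 on the log2 scale, and intervals that include 0.

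Some members varied most between replicates. *Hoxa2*, a gene of cranial neural crest, was at 2.14 and 2.42 CPM in controls and 2.41 and 1.32 CPM in *Rest* pKO, and its lower group mean came from *Rest* pKO 2. The same library was lowest for *Hoxa3*, at 3.03, 3.63 and 3.48 CPM in the other 3 libraries and 1.73 CPM in *Rest* pKO 2, and for *Hoxa4*, at 1.43, 1.21 and 1.62 CPM against 0.96 CPM. *Hoxa7* had 2 and 13 counts in controls and 15 and 4 in *Rest* pKO, and nothing can be read from it at this depth.

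*Hoxb2*, the fourth most abundant gene per length, was at 4.34 and 3.83 CPM in controls and 3.99 and 4.33 CPM in *Rest* pKO, and *Hoxb6*, studied in pancreatic mesenchyme, at 2.20 and 2.52 against 2.13 and 2.41 CPM. Both had overlapping groups. *Hoxc4* was at 2.62 and 2.92 CPM against 2.09 and 2.32 CPM, with both *Rest* pKO libraries below both controls, a log2 fold change of −0.33 and an edgeR adjusted p of 0.756. *Hoxd4* was at 1.67 and 2.82 CPM against 2.36 and 3.14 CPM, and *Hoxc5* at 1.19 and 0.96 CPM against 1.07 and 1.96 CPM, and the groups of both genes overlapped. *Hoxb4* had a log2 fold change of −0.09 and *Hoxb8* of 0.21. *Hoxc6* and *Hoxd9*, among the lowest of the tested genes, had 4 to 17 counts in each library.

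The 95% intervals of the log2 fold change reached between 0.61 and 2.13 to each side, with a median of 0.94. They included 0 for 18 of the 20 genes and lay within −1 and 1 for 4. The other 16 intervals reached past a 2-fold change in at least 1 direction.

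**Figure D3:**
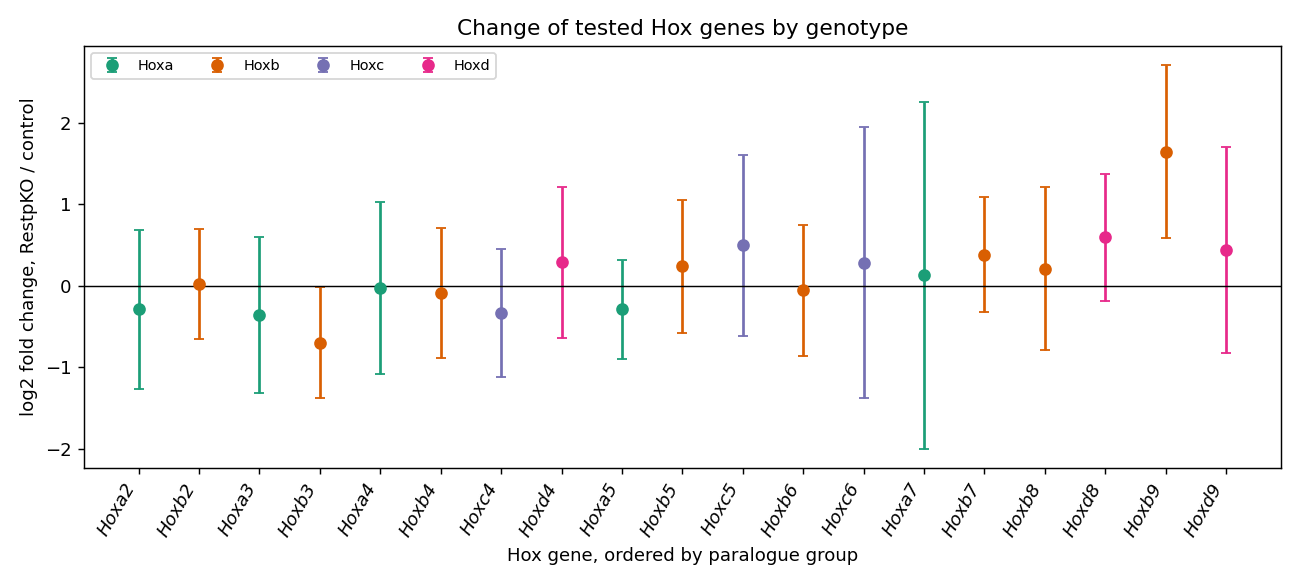
Log2 fold change of *Rest* pKO over control for 19 of the 20 tested Hox genes, ordered by paralogue group and coloured by cluster. Bars are 95% intervals from edgeR, and only those of *Hoxb3* and *Hoxb9* leave out 0. Points of groups 1 to 4 lie mostly below the line and points of groups 5 to 9 mostly above it.

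Ordered by paralogue number, the fold changes had a direction. Of the 9 tested genes in groups 1 to 4, 7 lay below 0, and of the 11 in groups 5 to 9, 9 lay above 0. Spearman's rho between the log2 fold change and the paralogue number was 0.76 over the 20 genes and 0.72 without *Hoxb9*. The genes share the same 4 libraries and are not independent, so the value is a description without a test, and the order was noticed after the values were seen. Between single libraries of different genotypes rho was 0.71 for the female pair and 0.48 for the male pair. Between replicates of one genotype it was 0.26 for control 2 over control 1 and 0.20 for *Rest* pKO 2 over *Rest* pKO 1. The replicate pairs differ in sex and the genotype pairs do not, so these values are not like for like. Leaving out 1 library lowered rho to 0.50 without control 1, 0.54 without *Rest* pKO 1 and 0.59 without *Rest* pKO 2, and it was 0.76 without control 2. Without *Rest* pKO 2 only 4 of the 9 genes of groups 1 to 4 lay below 0.

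Shares of the summed level restate the same counts and are no second observation of this order. They are given for the ends of the family. Groups 1 to 3 held 29.7% and 28.1% in controls and 24.0% and 20.3% in *Rest* pKO. Groups 9 to 13 held 2.45% and 3.06% in controls and 6.29% and 6.14% in *Rest* pKO. *Hoxb9* made most of the difference at the posterior end, since without it the share was 1.46% and 1.45% in controls and 2.52% and 1.51% in *Rest* pKO. Without *Hoxb3* the share of groups 1 to 3 was 19.95% and 17.7% in controls and 16.9% and 14.6% in *Rest* pKO. By cluster, 5 of 6 tested *Hoxa* genes lay below 0 and 3 of 3 tested *Hoxd* genes above 0, with 5 of 8 *Hoxb* genes above 0 and 2 of 3 *Hoxc* genes.

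**Figure D4:**
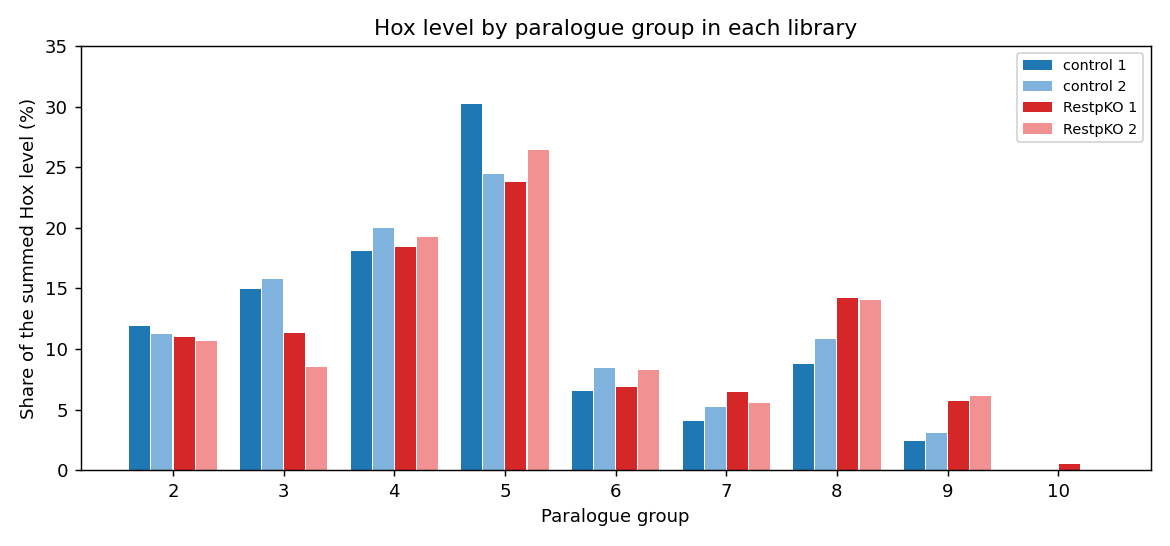
Share of the summed Hox level, in percent of CPM per kilobase, held by paralogue groups 2 to 10 in each library. Group 5 is tallest at 23.8% to 30.2%, *Rest* pKO bars stand below the controls in groups 2 and 3 and above them in groups 7, 8 and 9, and groups 11 to 13 are left out because they hold no count.

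Cells that carry Hox transcripts may differ in number between the organs, and in bulk samples fewer cells of a type and less RNA per cell cannot be told apart. The 17 mesenchyme markers summed to 9962 and 8960 CPM in controls and to 5408 and 8242 CPM in *Rest* pKO. Of them 15 lay below 0, and edgeR called 0. At an unadjusted edgeR p under 0.05, 5 were lower, where 5.61% of all genes were lower at that threshold. Collagen genes led the mesenchyme sums. *Col3a1*, the highest, was at 3789 and 3442 CPM in controls and 2135 and 3444 CPM in *Rest* pKO, with overlapping groups. All 6 tested mesothelium markers lay below 0, with sums of 361 and 305 CPM against 156 and 227 CPM. *Wt1*, a mesothelial transcription factor, was at 52.5 and 38.5 CPM in controls and 20.1 and 23.4 CPM in *Rest* pKO, a log2 fold change of −1.07. Its adjusted p was 0.357 from edgeR, 0.0153 from DESeq2 and 0.0147 from edgeR with sex as a term, so the last 2 fits called it lower.

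Markers of neurons and Schwann cells moved the other way. All 11 tested lay above 0, and the sums of the list were 32.4 and 30.6 CPM in controls and 51.1 and 56.9 CPM in *Rest* pKO. REST represses neuronal genes, and whether these transcripts came from nerve or from epithelium was not tested. The summed level of skeletal muscle markers was raised in *Rest* pKO 2 alone. *Myh3*, an embryonic myosin, was at 10.4 CPM there against 0.05 to 0.56 CPM in the other 3 libraries. In 3 of the 6 muscle markers, *Myh3*, *Myog* and *Tnnt3*, both *Rest* pKO libraries exceeded both controls, beside 21.5% of all genes. *Hoxb9* was at 1.99 CPM in *Rest* pKO 1 and at 2.09 CPM in *Rest* pKO 2. Endothelial markers summed to 477 and 623 CPM in controls and 692 and 732 CPM in *Rest* pKO. Kidney markers, of which only 1 was tested, overlapped between the genotypes, at 82.5 and 74.1 CPM against 100 and 61.2 CPM. Of the 6 gut markers 2 had no count in any library. All 11 islet markers lay above 0, with sums of 3033 and 2045 CPM in controls and 4402 and 6459 CPM in *Rest* pKO. All 8 tested leukocyte markers lay below 0, and 3 of the 8 had groups that did not overlap, beside 21.2% of all genes. DESeq2 and edgeR with sex as a term each called 4 islet markers higher. Both also called the leukocyte markers *Ptprc* and *Itgam* lower. These fits called 0.716% and 1.7% of all genes in either direction. Erythroid markers summed to 32.7 and 135 CPM in controls and to 22.3 and 22.1 CPM in *Rest* pKO, so that control 2 stood apart. All 4 tested were lower at an unadjusted edgeR p under 0.05, beside 5.61% of all genes, and the groups of *Alas2* overlapped. The 4 haemoglobin genes of the list had no count in any library. Only uniquely mapped reads were counted, and whether haemoglobin transcripts were absent was not tested. Spleen markers summed to 9.68 CPM in control 2 and to 1.07 to 2.19 CPM elsewhere. The part of the mesenchymal, mesothelial, neural, endothelial, islet, leukocyte, erythroid, spleen and muscle markers in the Hox values was not tested.

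Hox proteins bind DNA together with TALE homeodomain cofactors of the Pbx, Meis and Pknox families. All 9 were tested. No cofactor passed an unadjusted p of 0.05, and 7 of 9 lay below 0. *Meis1* was at 39.0 and 47.2 CPM against 41.0 and 33.9 CPM, with overlapping groups.

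Polycomb complexes, which keep Hox genes silent, showed 0 called genes among 11 of the PRC2 list and 17 of the PRC1 list. Only *Phc1*, a PRC1 subunit, reached an unadjusted p under 0.05 (3.26% of all genes were higher at that threshold), with 18.9 and 17.99 CPM in controls and 24.0 and 25.5 CPM in *Rest* pKO. In the list of 10 genes of the MLL complexes and the demethylases that remove the Polycomb mark, 0 were called and 3 were lower at an unadjusted p under 0.05, beside 5.61% of all genes. These were *Kdm6b*, such a demethylase, at 41.2 and 43.1 CPM in controls and 29.2 and 28.3 CPM in *Rest* pKO, and the histone methyltransferases *Kmt2a* and *Kmt2b*, with log2 fold changes of −0.46 and −0.44. The adjusted p of *Kdm6b* was 0.463 from edgeR.

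Retinoic acid is a known inducer of anterior Hox genes. Of the 18 genes of its pathway list 14 were tested, 0 were called and 2 were lower at an unadjusted p under 0.05, beside 5.61% of all genes. These were both enzymes that make retinoic acid or its precursor. *Aldh1a2*, the main embryonic synthesis enzyme and a gene of mesenchyme and mesothelium, was at 69.1 and 51.6 CPM in controls and 25.3 and 41.2 CPM in *Rest* pKO. Its log2 fold change was −0.86 (adjusted p = 0.463 from edgeR). *Rdh10*, which makes retinaldehyde, was at 14.5 and 14.7 CPM against 10.5 and 8.56 CPM.

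The ParaHox and Cdx genes are relatives of the Hox genes outside the clusters. Of these 6 only *Pdx1*, the pancreatic member, was tested, at 12.2 and 8.77 CPM in controls and 12 and 9.24 CPM in *Rest* pKO, with overlapping groups. Of 18 non-coding genes of the clusters that the counts cover, 9 had no count and 2 were tested. *Hotairm1* had 15 and 17 counts in controls and 11 and 14 in *Rest* pKO, and *Hoxaas2* 10 to 14 counts in every library. Among the microRNA genes of the clusters only *Mir10a*, with at most 2 counts, and *Mir196a-1*, with at most 3, had any.

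Of 15 tested genes next to the clusters 0 were called, and 1 was higher at an unadjusted p under 0.05, beside 3.26% of all genes. This was *Skap1*, an adaptor of T cells that lies beyond *Hoxb1* at chr11:96325907-96620791 (mm9), 188 kb from *Hoxb9*. It was at 0.59 and 0.35 CPM in controls and 1.34 and 1.502 CPM in *Rest* pKO, with a log2 fold change of 1.59 and an edgeR adjusted p of 0.463. Between *Hoxb9* and *Skap1* the tested genes from *Hoxb8* to *Hoxb2* had log2 fold changes from −0.70 to 0.38.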

How the data were processed

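Per the labels and the study's methods, DNase-treated RNA of E18.5 pancreas was read as pairs, aligned with STAR, and uniquely mapped reads were assigned to UCSC mm9 genes by featureCounts (1.5 in the submitters' notes). The authors deposited whole-number counts per gene. The methods name 3 pancreas per genotype and the table used here holds 2 libraries of each. Strand setting and counting of pairs or reads are not given in the sources used here. The table held no column of the authors' own comparisons.

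Counts were tested with edgeR 4.0.16 in R 4.3.3 (filterByExpr, TMM, glmQLFit, glmQLFTest, genotype as the only term) over 14550 genes with Benjamini-Hochberg adjustment, threshold 0.05. DESeq2 1.42.0 and limma 3.58.1 were alternatives. Standard errors are the log2 fold change over the square root of F. Levels per length used the union of exons of GENCODE M1 on mm9, where all 39 Hox genes had a length. Replicates of a genotype differed by more than sampling noise (chi-square per degree of freedom 23.2 and 64.9). Replicate numbers did not pair the libraries (correlation of same-numbered deviations 0.05). The fit was run on simulated data with known changes. These changes were larger than that of any tested Hox gene and were set only in better counted genes. The run therefore does not show which changes could be detected among Hox genes.

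Genes were named by rule: per cluster the 3 with the highest level per length, the highest of each paralogue group, up to 12 with the smallest p, those of at least 1 CPM whose groups do not overlap, and the leading members of each other list. Some such genes are left out of the text but stay in its counts. Members, lists and tests were chosen with earlier results of these data known. Alternatives were other scalings and filters, DESeq2, limma-voom, a replicate block, sex as a term, other gene lengths and leaving out each library. Removing a trend with exon length, and lengths without shared bases, were added after seeing the data.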

Additional observations from a re-analysis of the deposited data

How the results depend on the processing

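No Hox gene was called under any of the 13 alternatives to the edgeR fit, and the lowest adjusted p of a Hox gene ranged from 0.105 (*Hoxb3*, without *Rest* pKO 1) to 0.923 (*Hoxb9*, without control 1). The precision was limited by 2 libraries per genotype and by means of at most 6.93 CPM per Hox gene. Over all genes the calls depended on the fit, from 0 higher and 4 lower in the main setting to 26 and 76 by DESeq2, 60 and 187 with sex as a term and 59 and 455 without *Rest* pKO 1. Where 1 library was left out, its genotype's other library was assumed to vary like the remaining ones. The replicate numbers share only a number, and with the replicate block, as without it, 0 genes were higher, 4 lower and 0 Hox genes called.

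For single genes direction changed only when a library was left out. The log2 fold changes over these 4 fits ranged from −0.78 to 0.082 for *Hoxa2*, from −0.94 to 0.0633 for *Hoxa3*, from −0.46 to 0.30 for *Hoxa4*, from −1.10 to 1.82 for *Hoxa7*, from −0.0649 to 0.11 for *Hoxb2*, from −0.41 to 0.19 for *Hoxb4*, from −0.15 to 0.0446 for *Hoxb6*, from −0.0195 to 0.46 for *Hoxb8*, from −0.0028 to 0.87 for *Hoxc5*, from −0.45 to 0.93 for *Hoxc6* and from −0.0422 to 0.72 for *Hoxd4*. They ranged from −0.20 to 0.27 for *Pdx1* and from −0.13 to 0.24 for *Hoxaas2*. The cause was not tested. In the lists of cofactors, regulators and neighbours 0 to 1 genes were called higher and 0 to 4 lower over these fits. In the marker lists it was 0 to 9 higher and 0 to 12 lower over the same fits. DESeq2 called 4 markers higher and 4 lower, beside 26 and 76 of all 14250 genes with an adjusted p, or 0.716% in either direction. With sex as a term 7 markers were called higher and 8 lower, beside 0.412% and 1.29% of all 14550 genes.

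Cluster shares followed the length used. Without division by length *Hoxa* held 28.9% and *Hoxb* 46.7%, and 16 genes reached a mean of 1 CPM. With the longest transcript *Hoxb* held 42.4%. With bases shared between Hox genes left out of the length, *Hoxb* held 38.8%, *Hoxc* 7.51% and *Hoxd* 23.4%, which follows from the shorter length given to *Hoxd4*, and 7 genes reached a mean of 1. Leaving out each library gave 32.1% to 36.0% for *Hoxa*, 40.6% to 41.6% for *Hoxb*, 8.30% to 8.99% for *Hoxc*, 15.0% to 17.9% for *Hoxd* and 5 to 6 genes at a mean of 1.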
